A study of Danio rerio with 9 samples.

Results

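The genes tspan13a and cd82b, which encode tetraspanins, were described in zebrafish embryos of 3 ploidies at 3 hours after fertilization. They are 2 of the 30702 loci listed in each library table, found by their gene symbols, and both are among the 5881 loci with a mean FPKM of at least 1 that were tested. FPKM is a level per length of transcript: fragments per kilobase, relative to the mapped fragments of the library. Both genes were chosen because earlier results of these data showed low values in tetraploids. Their tetraploid values are therefore a description, with no p-value given, and nothing is read from whether they passed a test. All other tetraspanin loci in the tables, 43 by symbol, served for comparison, and 8 of them passed the same filter.

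Libraries came from 3 samples each of tetraploid, haploid and diploid (control) whole embryos, all at 3 hours and all with TJH given as the female and Tu as the male parent. Per the labels, haploids and tetraploids were generated by a published method, which the labels cite without its steps. The labels do not give the number of embryos per library, and do not say that replicates came from separate clutches. The p-values are therefore set against a spread between samples that could be technical only.

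Tetraspanins are small proteins that span the membrane several times and carry a large extracellular loop. They bind one another and partner proteins such as integrins, immunoglobulin superfamily proteins and sheddases, and organise them into membrane microdomains. CD82 is known in human cells as a metastasis suppressor that binds integrins and slows migration. TSPAN13 is a less studied member, known from mammalian cells to associate with voltage-gated calcium channels. At this stage of zebrafish development, transcription from the embryo's own genome is beginning and most RNA is still of maternal origin.

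An FPKM of at least 1 was reached by 5395 to 5921 loci in each of the 9 libraries. Tetraploid replicate 3 stood apart. Its correlations with the other libraries, over the log2 levels of all loci tested, were 0.916 to 0.930, against 0.950 to 0.985 among the 28 other pairs. To scale the libraries, its FPKM were divided by 0.793, and those of the other libraries by 1.01 to 1.06. No pair of libraries held identical values. The tetraploid differences of the members and of the other tetraspanins against diploids, and the counts and medians of gene lists, are given with and without this library.

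The tspan13a locus lies on chromosome 15 from 34734245 to 34741801 (GRCz10, as the deposited tables give it). Its level, in FPKM scaled between libraries, was 2.13, 2.39 and 1.97 in tetraploid replicates 1, 2 and 3. It was 4.48, 4.83 and 4.09 in haploid replicates, and 3.58, 7.53 and 7.37 in diploid replicates. The 3 tetraploid libraries lay close together and below each of the other 6. Haploid and diploid libraries overlapped, because diploid replicate 1 was lower than every haploid library. The mean was 2.16 ± 0.210 in tetraploids, 4.47 ± 0.370 in haploids and 6.16 ± 2.24 in diploids (SD, n = 3 each). In bulk RNA of whole embryos, fewer cells that carry a transcript and less of it per cell cannot be told apart.

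The cd82b locus lies on chromosome 18 from 27593207 to 27648151. By its mean over the libraries it was second, after tspan31, among the 10 tetraspanins that passed the filter. Its scaled FPKM was 45.8, 56.4 and 39.1 in tetraploid replicates 1, 2 and 3. It was 90.1, 88.6 and 81.4 in haploid replicates, and 70.4, 65.0 and 70.9 in diploid replicates. The groups did not overlap: tetraploids were lowest, diploids lay between and haploids were highest. The mean was 47.1 ± 8.68 in tetraploids, 86.7 ± 4.63 in haploids and 68.8 ± 3.31 in diploids (SD, n = 3 each).

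**Figure D1:**
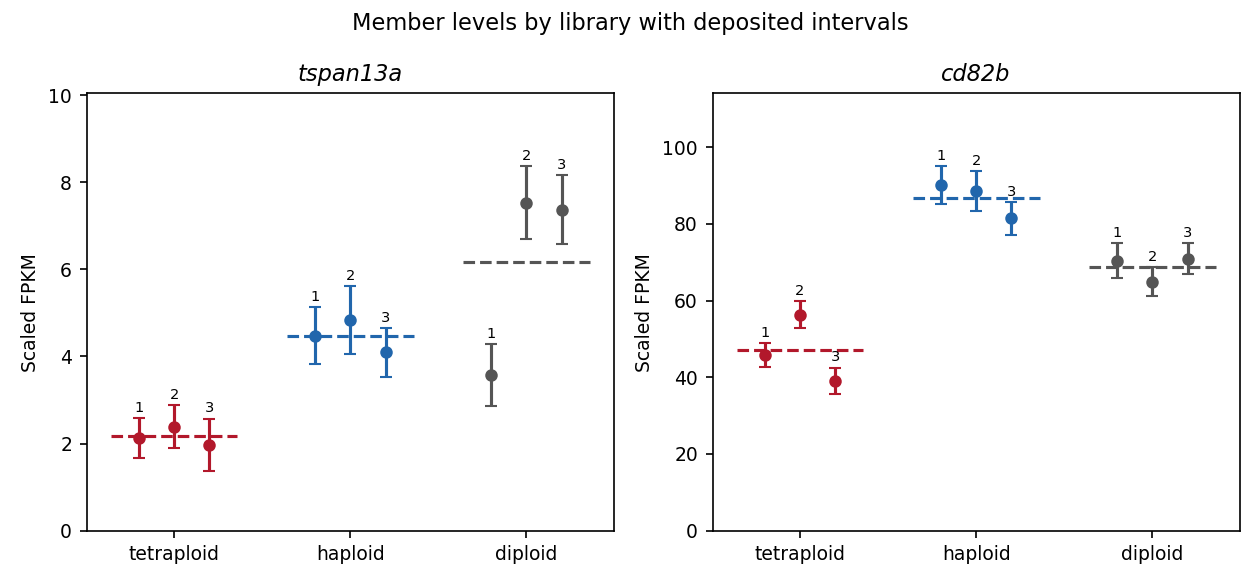
Scaled FPKM of tspan13a and cd82b (vertical axes, linear from 0) in each library, grouped as tetraploid, haploid and diploid. Points are libraries with their replicate number, bars are the deposited intervals scaled alike, and dashed lines are group means; all tetraploid points lie below the points of the other 6 libraries, with diploid replicate 1 the nearest for tspan13a at 3.58.

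The precision behind these values differed between the genes. Depth is not stated in the sources used here. The deposited interval of each FPKM, read as 2 standard deviations of counting error on either side, implied 43.4 to 353 fragments per library for tspan13a. For cd82b it implied 529 to 1413 fragments. The implied counting error was 12.3% of the level for tspan13a in tetraploids, 7.43% in haploids and 7.25% in diploids. The spread between libraries was 9.70% in tetraploids, 8.29% in haploids and 36.3% in diploids. Only in diploids was the spread of tspan13a several times its implied counting error. For cd82b the implied counting error was 3.65% in tetraploids, 2.78% in haploids and 3.01% in diploids, against a spread of 18.4%, 5.34% and 4.81% in the same groups. On the deposited scale, the highest upper bound of tspan13a in any tetraploid library was 3.04 FPKM (3.04048), and the lowest lower bound in any other library was 3.04469 FPKM. For cd82b these bounds were 63.1 FPKM (63.0851) in tetraploids and 63.2 FPKM (63.175) in the others. On this unscaled scale the tetraploid intervals of both genes thus ended just below the rest. For tspan13a these bounds belong to tetraploid replicate 2 and diploid replicate 1. Scaling divides these libraries by 1.053 and 1.062 in the same order, and their scaled intervals of tspan13a overlap slightly. The separation of the tspan13a intervals therefore does not hold for the scaled levels. Both genes were chosen for low tetraploid values, so nothing is read from the separation of their intervals on either scale.

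In abundance the members differed widely. Among loci with an FPKM of at least 1, the cd82b level was at or above that of 75.4% to 84.3% of loci in tetraploid libraries, 89.9% to 91.6% in haploid libraries and 86.3% to 88.5% in diploid libraries. The tspan13a level was at or above that of 7.78% to 15.9% of loci in tetraploid libraries, 26.4% to 28.7% in haploid libraries and 23.8% to 40.4% in diploid libraries.

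In tetraploids against diploids, the mean scaled FPKM of tspan13a was 35.1% of the diploid mean, and its log2 difference was -1.13 (SE 0.251, limma). For cd82b the tetraploid mean was 68.5% of the diploid mean and the log2 difference was -0.55 (SE 0.147). These differences were taken after adding 1 to the scaled FPKM, so those of low genes such as tspan13a come out too small. Without tetraploid replicate 3 the differences were -1.08 for tspan13a and -0.43 for cd82b. Across all loci tested, 1 of 5881 (0.017%) had an adjusted p under 0.05 in this comparison by limma with Benjamini-Hochberg adjustment, and neither member was that locus. The 3 tetraploid libraries lay below all 3 diploid libraries in both members, and in 5.71% of all loci tested. Since the members were chosen on this contrast, nothing is read from these counts. In rank, 0.731% of all loci tested had a lower log2 difference than tspan13a, and 5.85% had a lower one than cd82b.

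In tetraploids against haploids, the mean of tspan13a was 48.4% of the haploid mean, with a log2 difference of -0.79 (SE 0.251). For cd82b the tetraploid mean was 54.3% of the haploid mean, with a log2 difference of -0.88 (SE 0.147). Without tetraploid replicate 3 the differences were -0.75 for tspan13a and -0.76 for cd82b. Here too 1 of 5881 loci (0.017%) was called, neither of the members. Tetraploid and haploid libraries did not overlap in both members, and tetraploids were lower without overlap in 6.46% of all loci. All tetraploid libraries lay below all 6 others in both members, as they did in 2.3% of loci tested (135 loci). The members were chosen for low tetraploid values, so nothing is read from these shares or from the call. Both tetraploid comparisons share the tetraploid libraries, so their values are not independent of each other. The size of the tspan13a difference depends on the pseudocount: with 5 in place of 1 it was -0.62 against diploids and -0.40 against haploids, and with 0.1 it was -1.40 and -1.01.

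The haploid against diploid comparison was not used to choose the members, though the diploid libraries are shared with one that was. The level of cd82b averaged 86.7 ± 4.63 scaled FPKM in haploids and 68.8 ± 3.31 in diploids (SD, n = 3 each), and was higher in each of the 3 haploid libraries than in any diploid library. Its log2 difference was 0.33 (SE 0.147, 95% interval 0.000487 to 0.659), and it did not pass over all loci tested (limma, adjusted p = 1, unadjusted p = 0.0497). Haploid libraries lay above all diploid libraries without overlap in 5.05% of all loci. Tetraploids below diploids below haploids, with no overlap, was the order of 24 of the 5881 loci (0.408%), cd82b among them. This order includes the low tetraploid level on which cd82b was chosen, so nothing is read from that share. For tspan13a the haploid mean was 72.5% of the diploid mean. The log2 difference was -0.34 (SE 0.251, 95% interval -0.899 to 0.228), with overlapping groups, and did not pass (limma, adjusted p = 1). It was -0.63 without diploid replicate 1 (adjusted p = 0.999), which held the lowest diploid level. In this comparison limma called 0 of 5881 loci (0%), with 84 at an unadjusted p under 0.05.

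The sums of enveloping layer and yolk syncytial layer markers were highest in diploid replicate 1, though that of germ plasm markers was not. The summed scaled FPKM of 7 enveloping layer markers was 0.374 to 1.55 in tetraploids, 0.340 to 1.49 in haploids, and 14.8 in diploid replicate 1 against 0.532 and 1.37 in the other diploids. In this list krt4, krt5, cldne and anxa1c were listed at 0 in all libraries, and 1 marker had a mean FPKM of at least 1. Outside diploid replicate 1 the sum of the whole list was at most 1.55, so the high sum rests on 1 library. The sum of 5 yolk syncytial layer markers was 1.16 to 3.77 in tetraploids, 0 to 2.68 in haploids and 1.46 to 10.4 in diploids, highest again in replicate 1. Here apoa1b, mxtx1 and slc26a1 were listed at 0 throughout, and 1 marker had a mean FPKM of at least 1. The sum of 9 germ plasm markers was 446.9 to 574.6 in tetraploids, 528.0 to 561.1 in haploids and 508.0 to 548.6 in diploids, with dnd1 listed at 0 throughout and 4 of the 9 markers at a mean FPKM of at least 1. The other 5 (ca15b, dazl, dnd1, nanos3 and piwil1) belong to a part of the tables, described with the low tetraspanins, whose loci were taken as unmeasured, as do 5 of the 7 enveloping layer and 3 of the 5 yolk syncytial layer markers. Without diploid replicate 1 the tetraploid minus diploid difference was -1.42 for tspan13a and -0.53 for cd82b. The part of these markers in the members' levels was not tested.

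The other tetraspanins that passed the filter did not share 1 pattern across ploidy. Of the 8, 4 had a tetraploid minus diploid log2 difference below 0 and 4 above 0, with a median of -0.13, against a median of 0.00318 over all loci tested, 49.4% of which were below 0. The median of the 8 was -0.03, with 4 below 0, when tetraploid replicate 3 was left out. With FPKM as deposited, 6 of the 8 were below 0 in tetraploids against diploids and 6 against haploids. At that setting the median of all loci tested was also below 0, at -0.112 and -0.0915 in the same order. With scaled FPKM, limma called 0 of the 8, where it called 0.017% of all loci. An unadjusted p under 0.05 (limma) was reached by 1 of the 8 and by 286 of the 5881 loci tested. In tetraploids against haploids, 4 were below 0 and 4 above (median 0.03, against -0.00189 over all loci), and 0 were called. Leaving out tetraploid replicate 3 gave a median of 0.04, with 3 below 0. With all libraries, 1 of the 8 had an unadjusted p under 0.05 (limma), as did 455 of the 5881 loci tested. In haploids against diploids, 3 were below 0 and 5 above (median 0.02, against -0.00133 over all loci), and 0 were called. There 0 of the 8 had an unadjusted p under 0.05 (limma), against 84 of the 5881 loci tested.

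**Figure D2:**
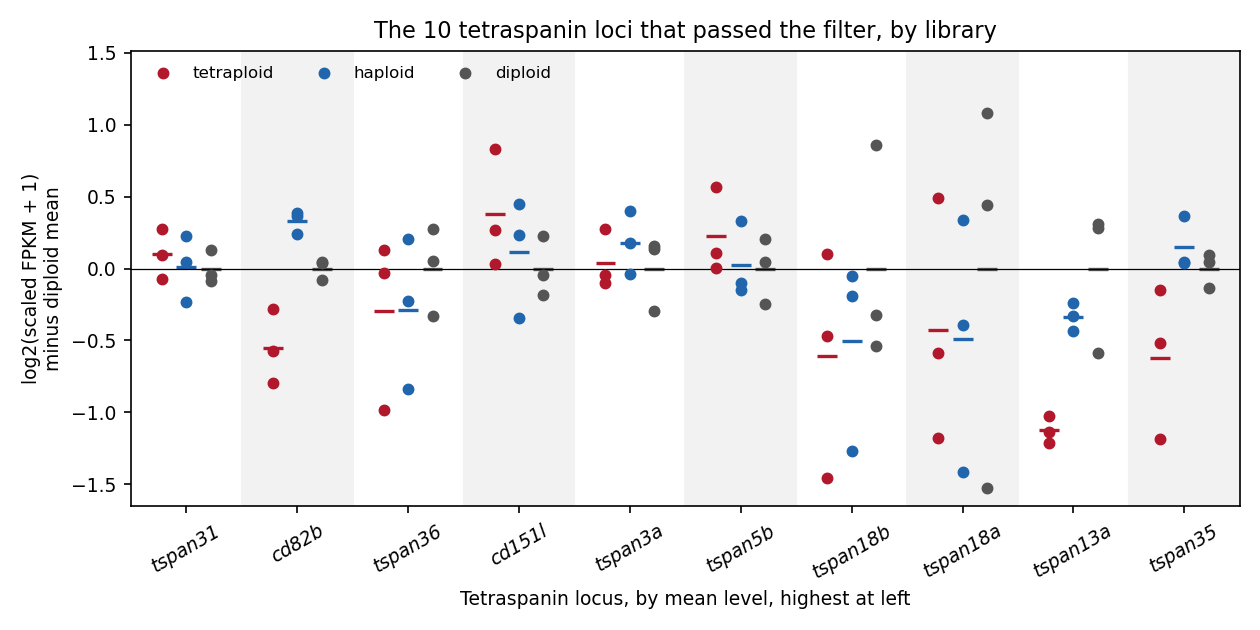
Level of each of the 10 tetraspanin loci that passed the filter, as log2(scaled FPKM + 1) minus the mean of the diploid libraries (vertical axis), with tetraploid, haploid and diploid libraries as points and group means as short lines. Tetraploid points lie below all others in cd82b, tspan13a and tspan35; in tspan18a and tspan18b each group spans a wide range.

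Among the 8, tetraploid libraries were lowest in tspan35, on chromosome 3 from 14461498 to 14488599. Its scaled FPKM was 1.43, 0.883 and 0.190 in tetraploid replicates 1, 2 and 3, against 2.48, 1.78 and 1.79 in haploids and 1.45, 1.78 and 1.89 in diploids. Its tetraploid libraries were below the other 6, by 1.43 against 1.45 at the closest point, an order seen in 2.3% of loci tested. The deposited intervals of that closest pair overlap, at 0.920 to 2.07 and 0.853 to 2.23 FPKM. Mean levels were 0.835 in tetraploids, 2.01 in haploids and 1.71 in diploids. The locus thus passed the filter of 1 through the other groups, so nothing is read from this order. The log2 difference was -0.62 against diploids (SE 0.267, adjusted p = 0.829) and -0.77 against haploids (SE 0.267, adjusted p = 0.551), and neither passed in limma. Without tetraploid replicate 3 these differences were -0.34 (adjusted p = 0.963) and -0.49 (adjusted p = 0.498). It was the 1 locus of the 8 whose groups did not overlap, in both tetraploid comparisons, as was seen in the lower direction for 5.71% and 6.46% of all loci. These levels are low, with 16.0 to 49.3 implied fragments where the interval allowed an estimate. For tetraploid replicate 3, which had the lowest level at 0.190, the interval allowed none.

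The most abundant tetraspanin among those that passed the filter was tspan31. Its human relative was found amplified in sarcomas, and tspan31 is close to TSPAN13 in sequence. It averaged 84.4 ± 10.3 scaled FPKM in tetraploids, 79.6 ± 12.7 in haploids and 78.5 ± 6.49 in diploids (SD, n = 3 each). Its tetraploid minus diploid log2 difference was 0.10, with a 95% interval of -0.248 to 0.447 (limma, adjusted p = 0.888). The 3 groups overlapped, and without tetraploid replicate 3 the difference was 0.01.

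The gene cd151l, related to CD151, a partner of laminin-binding integrins, had 41.5 ± 12.6 scaled FPKM in tetraploids, 34.3 ± 9.31 in haploids and 31.0 ± 4.71 in diploids. Its tetraploid minus diploid log2 difference was 0.38, with a 95% interval of -0.195 to 0.949 (adjusted p = 0.829). The highest library was tetraploid replicate 3, at 55.6, where cd82b was at its lowest, and without this library the difference was 0.15. Before scaling, which raised the values of this library, cd151l had 44.1 FPKM there and 43.9 in haploid replicate 3. The locus lies on chromosome 18, as cd82b does.

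For tspan36 the levels were 40.1 ± 14.9 in tetraploids, 39.8 ± 14.1 in haploids and 47.4 ± 9.95 in diploids. For tspan3a they were 16.5 ± 2.51 in tetraploids, 18.2 ± 2.90 in haploids and 16.0 ± 2.84 in diploids. The gene tspan5b, of the subgroup that escorts the sheddase ADAM10, had 10.1 ± 2.39 in tetraploids, 8.64 ± 1.85 in haploids and 8.44 ± 1.46 in diploids. All 3 genes overlapped between groups in each comparison. Their tetraploid minus diploid log2 differences were -0.29, 0.04 and 0.23 in the order named (limma, adjusted p = 0.859, 0.971 and 0.843). Without tetraploid replicate 3 they were 0.05, -0.07 and 0.06, so tspan36 and tspan3a changed sign.

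The paralogs tspan18a and tspan18b varied widely between libraries of the same group. TSPAN18 is known from human endothelial cells as a partner of a calcium channel. The level of tspan18a was 1.47, 6.85 and 2.73 in tetraploids, 3.27, 1.10 and 6.07 in haploids, and 0.944, 10.9 and 6.59 in diploids. That of tspan18b was 4.03, 6.47 and 1.54 in tetraploids, 5.72, 5.12 and 1.89 in haploids, and 4.59, 3.81 and 11.6 in diploids. In tetraploids against diploids the 95% interval of the log2 difference was -2 to 1.14 for tspan18a (adjusted p = 0.893) and -1.73 to 0.514 for tspan18b (adjusted p = 0.829, limma). Without tetraploid replicate 3 the differences were -0.35 for tspan18a and -0.19 for tspan18b. Both intervals include differences as large as those of the members, so a difference of that size is not excluded in either locus. The same holds for tspan35 (-1.22 to -0.0199), and the tspan36 interval (-1.05 to 0.464) includes the cd82b difference of -0.55. The lower bounds of tspan31, cd151l, tspan3a and tspan5b lie above -0.55.

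**Figure D3:**
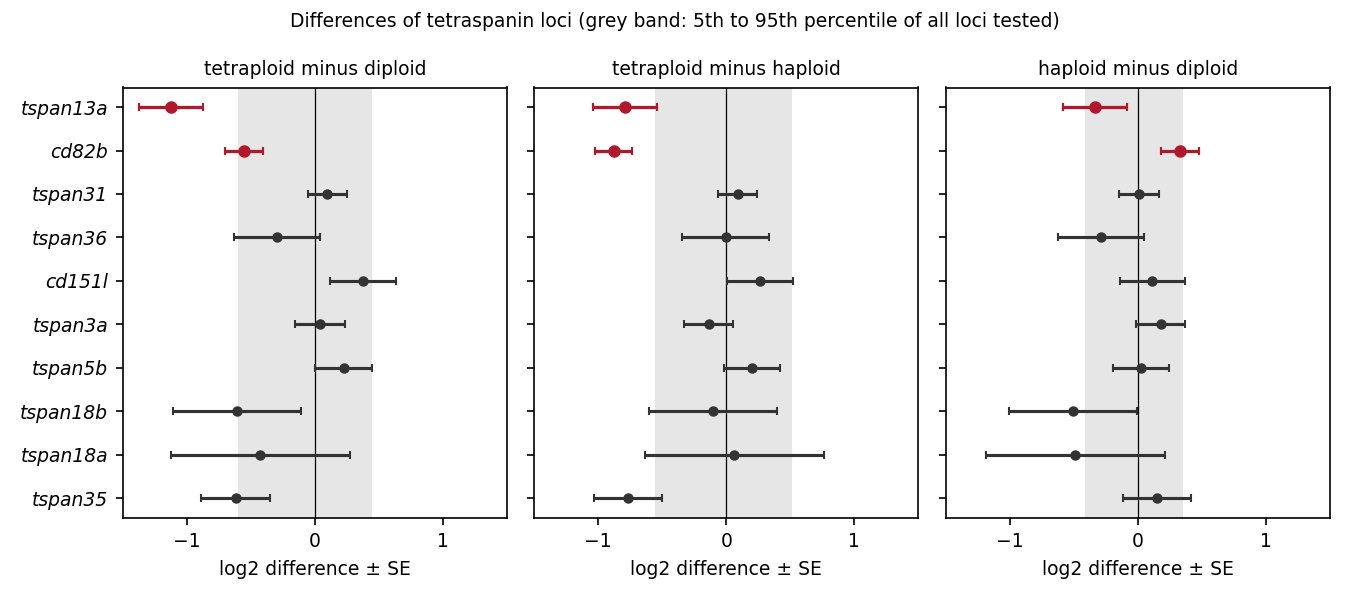
Log2 difference on the log2(scaled FPKM + 1) scale with its standard error (limma) for tspan13a and cd82b (red) and the 8 other tetraspanin loci (dark grey), in panels for tetraploid minus diploid, tetraploid minus haploid and haploid minus diploid. The grey band spans the 5th to 95th percentile of all 5881 loci, -0.59 to 0.44 in the first panel. There tspan13a at -1.13 lies outside it and cd82b at -0.55 just inside. Of the other tetraspanins, tspan35 at -0.62 and tspan18b at -0.61 lie just outside it.

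The paralogs cd82a and tspan13b were far less abundant than the members. The paralog cd82a, on chromosome 7, had 0.0426 to 0.0891 scaled FPKM in tetraploids, 0.107 to 0.276 in haploids and 0.161 to 0.190 in diploids, below the filter and too low for a test. Its tetraploid libraries were below the other 6, by 0.0891 against 0.107 at the closest point, an order seen in 2.3% of loci tested. The deposited interval of cd82a reached down to 0 in every library but haploid replicate 1, so nothing is read from this order. The paralog tspan13b was listed at 0 in 7 of 9 libraries and reached at most 0.0756. On both chromosomes cd82 and tspan18 genes neighbour each other: tspan18a starts at 26491764 beside cd82a at 26438057 on chromosome 7, and tspan18b starts at 27754044 beside cd82b on chromosome 18.

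Of the 35 other tetraspanin loci that did not pass the filter, 24 lie in the second of 2 numbering runs of the tables. On each chromosome locus numbers rise with position, restart once and rise again. A mean FPKM of at least 1 was reached by 38.5% of first-run loci and by 0.283% of second-run loci, so second-run genes were taken as unmeasured, not as silent. Among these 24 loci, which include cd9a, cd9b, cd81a, cd151 and cd53, 18 were listed at 0 in every library and the highest value was 0.2997. All 10 tetraspanins that passed, the members among them, are in the first run. Of the 11 first-run loci below the filter, 3 (prph2b, rom1b and tspan10) were listed at 0 in every library. The exosome marker cd63 had 0.390 ± 0.160 in tetraploids, 0.409 ± 0.255 in haploids and 0.766 ± 0.237 in diploids.

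The loci next to cd82b had differences of both signs. The 3 tested loci that start within 250 kb were si:dkey-29p10.4, tp53i11b and tspan18b, with tetraploid minus diploid log2 differences of -0.39, 0.29 and -0.61 (limma, adjusted p = 0.829 for each). They were -0.20, 0.09 and -0.19 without tetraploid replicate 3. The gene tp53i11b, which ends at 27591078, just before cd82b starts, had 31.4 ± 8.65 scaled FPKM in tetraploids, 29.3 ± 3.60 in haploids and 25.1 ± 2.99 in diploids. No tested locus starts within 250 kb of tspan13a. The median tetraploid minus diploid difference was 0.03 over the 197 loci tested on chromosome 18 and 0.03 over the 179 on chromosome 15, and without tetraploid replicate 3 it was 0.00600 on chromosome 18 and -0.00591 on chromosome 15.

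Among the 19 tested loci of 4 lists of partner and related genes, limma called 0 in tetraploids against diploids, 0 in tetraploids against haploids and 0 in haploids against diploids, where it called 0.017%, 0.017% and 0% of all loci. At these shares a count of 0 says nothing particular about the lists. Of all loci, 49.4% were below 0 in tetraploids against diploids (median 0.00318). Of the integrins, 3 of 28 listed loci were tested. The most abundant, itgb5, had 54.3 ± 6.44 scaled FPKM in tetraploids, 58.2 ± 9.73 in haploids and 53.0 ± 4.06 in diploids. The gene itgb6 had 9.95 ± 1.75 in tetraploids, 5.86 ± 0.740 in haploids and 5.23 ± 2.49 in diploids, and itga4 had 1.56 ± 0.0775 in tetraploids, 1.88 ± 0.772 in haploids and 1.497 ± 0.183 in diploids. In tetraploids against diploids 0 of the 3 integrins were below 0 (median 0.04), and 0 without tetraploid replicate 3 (median 0.03).

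Of a list of immunoglobulin partners, sheddases and epcam, 3 of 7 loci were tested and all 3 were below 0 in tetraploids against diploids (median -0.30). Of the 3, 2 were below 0 without tetraploid replicate 3 (median -0.16). The adhesion gene epcam, known to bind tetraspanins in mammals, varied widely, with 335.2 ± 315 scaled FPKM in tetraploids, 582.3 ± 699 in haploids and 443.1 ± 259 in diploids. The sheddase gene adam17b had 0.753 ± 0.229 in tetraploids, 1.84 ± 1.73 in haploids and 1.15 ± 0.249 in diploids. The CD9 and CD81 partner igsf8 had 0.999 ± 0.211 in tetraploids, 1.05 ± 0.157 in haploids and 1.11 ± 0.288 in diploids.

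Claudins, another family with several membrane passes, had 5 of 40 listed loci tested, 2 of them below 0 in tetraploids against diploids (median 0.04), and 2 without tetraploid replicate 3 (median 0.09). The tight junction gene cldnd was by far the most abundant, with 3386 ± 812 scaled FPKM in tetraploids, 2619 ± 670 in haploids and 2393 ± 682 in diploids. The related cldnd1b had 4.92 ± 2.57 in tetraploids, 6.62 ± 1.18 in haploids and 5.62 ± 1.01 in diploids, and cldn11b had 1.28 ± 2.01 in tetraploids, 0.490 ± 0.228 in haploids and 2.34 ± 3.66 in diploids.

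Vesicle sorting genes, which load tetraspanin-bearing vesicles, had 8 of 13 loci tested, 4 below and 4 above 0 in tetraploids against diploids (median 0.000676). Of the 8, 4 were below 0 without tetraploid replicate 3 (median -0.09). The gene chmp4ba, an ESCRT subunit, had 62.2 ± 2.10 scaled FPKM in tetraploids, 67.5 ± 3.24 in haploids and 62.9 ± 1.45 in diploids. Its paralog chmp4bb had 58.3 ± 15.2 in tetraploids, 61.7 ± 2.07 in haploids and 57.4 ± 8.23 in diploids, and stam had 76.1 ± 31.2 in tetraploids, 74.8 ± 3.58 in haploids and 69.1 ± 6.53 in diploids. In tetraploids against haploids 7 of the 8 were below 0 and in haploids against diploids 0 of 8 were, with medians of -0.11 and 0.11. In tetraploids against haploids, 6 were below 0 without tetraploid replicate 3 (median -0.19). Both comparisons use the same haploid libraries, and 50.4% of all loci were below 0 in the first and 50.2% in the second. Of the integrins, 2 of 3 were below 0 in the first and 0 in the second. These counts were 3 and 2 of 3 in the immunoglobulin partner list, and 1 and 1 of 5 in claudins. Without tetraploid replicate 3, 2 loci of each of these lists were below 0 in tetraploids against haploids.

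The loci most like each member were ranked by Pearson correlation of log2 levels over the 9 libraries, among 4937 named loci. For tspan13a these were tm9sf2, aph1b, tsr1, hn1l and mob1bb, with r between 0.858 and 0.917. Without tetraploid replicate 3, over 8 libraries, r was 0.814 to 0.900, and 1 of the 5, tm9sf2, was still among the 5 most alike. The endosomal membrane protein gene tm9sf2 had 21.5 ± 1.16 scaled FPKM in tetraploids, 26.1 ± 1.25 in haploids and 26.7 ± 1.75 in diploids, a narrower range than that of tspan13a. The gene aph1b, a gamma-secretase subunit, had 135.3 ± 5.31 in tetraploids, 167.4 ± 3.29 in haploids and 163.2 ± 23.6 in diploids.

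For cd82b the most alike were got1, oxsr1a, ydjc, slc30a4 and lpp, with r between 0.945 and 0.966, and 0.901 to 0.969 over the 8 libraries, where 1 of the 5, ydjc, was still among the 5 most alike. Both lists thus changed when tetraploid replicate 3 was left out, and the ranking was not repeated without any other library. The aspartate aminotransferase gene got1 had 20.8 ± 2.34 scaled FPKM in tetraploids, 30.6 ± 0.626 in haploids and 25.1 ± 0.945 in diploids. The gene ydjc had 7.995 ± 1.39 in tetraploids, 15.2 ± 1.87 in haploids and 12.2 ± 1.25 in diploids. Here slc30a4, a zinc transporter gene, lies on chromosome 18, as cd82b does, and had 16.0 ± 1.90 in tetraploids, 22.1 ± 1.12 in haploids and 19.5 ± 1.22 in diploids. These correlations describe 9 libraries, within each of which all loci share the same depth and scaling factor, and no locus was on both lists. The members were chosen for low tetraploid values, so loci picked for likeness to them tend to be low there by that choice. Nothing is read from their low tetraploid levels. The r values are the highest of 4937 over 9 libraries, so they are high by that choice, and nothing is read from their size.

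**Figure D4:**
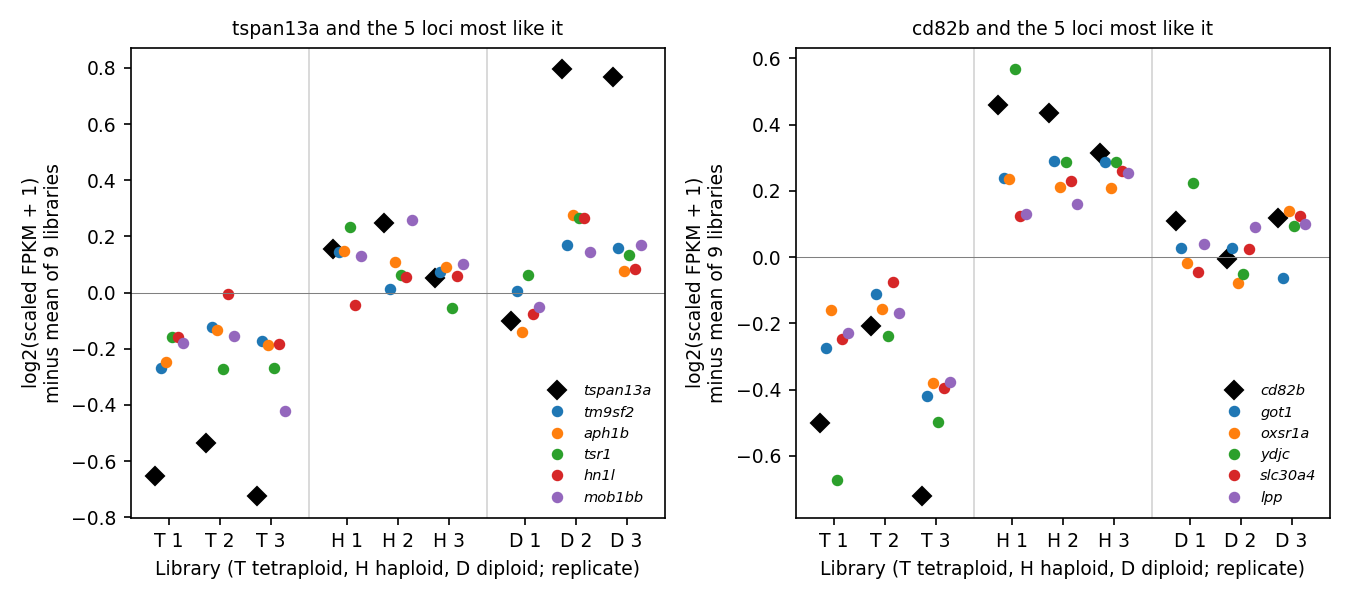
Log2(scaled FPKM + 1) minus the mean of the 9 libraries (vertical axis) in each library (horizontal axis) for tspan13a (left) and cd82b (right), as black diamonds, and the 5 loci most like each, as coloured points. The points of all loci shown are below 0 in the tetraploid libraries, which the choice of the members and of loci like them favours. The members range more widely than most of the loci like them, and tspan13a is far above its companions in diploid replicates 2 and 3.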

How the data were processed

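The files hold gene-level FPKM values of RNA sequencing libraries, made by the authors with the bounds of an interval, 1 table per library, per the file headers; depth and replicate origin are not stated. The submitters' processing notes list the build GRCz10 and the tools HISAT2, Cufflinks, Cuffdiff, Trim Galore and FastQC. No source used here gives their versions, the annotation, the strand setting or filters. In 2 more deposited tables there is 1 pooled FPKM per ploidy.

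FPKM were scaled by median-of-ratios factors. Loci with a mean deposited FPKM of at least 1 and no failed status (5 loci left out) were tested as log2(scaled FPKM + 1). The test was that of limma 3.58.1 (R 4.3.3), with its trend option, 1 model for the 9 libraries, 6 residual degrees of freedom, and p-values adjusted by Benjamini-Hochberg over all loci (threshold 0.05). The fit was tested on simulated data. Zeros are given as listed at 0, since they may be failed estimates.

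The members and all gene lists were chosen with earlier results of these data known. Named loci were the members, every other tetraspanin past the filter, the 5 loci most correlated with each member, tested loci starting within 250 kb, and the 3 most abundant of each partner list; other tetraspanins were named after their values were seen. The 18 alternatives covered scaling, pseudocount, filter, libraries left out, fits of 6 libraries, a library-set block and array weights. Sequences were not used here.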

Additional observations from a re-analysis of the deposited data

How the results depend on the processing

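Across the alternatives, both members kept a negative difference in tetraploids against diploids and against haploids, and their opposite signs in haploids against diploids, where no alternative gave a call (adjusted p = 0.942 to 1, limma). The members were chosen for low tetraploid values, and every tetraploid library lay below the others. Nothing is therefore read from the kept negative signs. The tspan13a difference moved by more than the spread between replicates with the pseudocount: to -0.62 against diploids with 5, and to -1.01 with 0.1 and -0.40 with 5 against haploids. With a mean FPKM of at least 5, tspan13a was not tested. Leaving out single libraries gave -1.42 to -0.97 for tspan13a and -0.69 to -0.43 for cd82b against diploids, -0.84 to -0.74 and -1.01 to -0.76 against haploids, and, in haploids against diploids, -0.63 to -0.18 for tspan13a and 0.29 to 0.37 for cd82b. With FPKM as deposited the median of all loci in tetraploids against diploids was -0.112, and the members' differences were -1.23 and -0.69. No alternative called another tetraspanin. Their number below 0 in tetraploids against diploids was 12 of 22 with no filter and 2 of 6 with a mean FPKM of at least 5 (3 to 5 over libraries left out), and in tetraploids against haploids 12 of 22 with no filter (3 to 5). With FPKM as deposited it was 6 of 8 in both, where the median of all loci was -0.112 and -0.0915. In haploids against diploids it was 5 of 8 with FPKM as deposited, 10 of 22 with no filter, and 2 to 5 over libraries left out. The 22 loci include 6 of the second numbering run, taken as unmeasured, and 8 first-run loci below the filter. Nothing is therefore read from the counts with no filter. The labels pair no libraries. With a replicate block for sets of consecutive library numbers the differences in haploids against diploids were -0.34 for tspan13a and 0.33 for cd82b (adjusted p = 1 each), and no call on a tetraspanin changed. Deviations of libraries in the same set correlated at -0.110 to 0.234, against -0.133 to 0.228 in different sets, and 3 of 9 libraries correlated best with their own set. Gene lists and neighbours without tetraploid replicate 3 were computed after the data were seen. Low fragment numbers limit tspan13a, tspan35 and cd82a.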

Other observations

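The authors' deposited pooled tables give the members in the same order of ploidies. In the first of the authors' deposited tables tspan13a had 5.19 FPKM in tetraploids, 10.7 in haploids and 14.8 in diploids, and cd82b had 113 in tetraploids, 207 in haploids and 164 in diploids. In the second of the authors' deposited tables tspan13a had 5.25 in tetraploids, 11.2 in haploids and 13.6 in diploids, and cd82b had 114 in tetraploids, 216 in haploids and 152 in diploids. Tetraploid values as a share of diploid values in the authors' deposited tables were 35.0% and 38.5% for tspan13a, against 35.1% from the scaled library means. For cd82b they were 68.7% and 74.9% in the authors' deposited tables, against 68.5% from the library means. The pooled values come from the same samples and are no separate evidence. Pooled FPKM are higher than those of the library tables, and levels were not compared across tables.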
